A study of Mus musculus with 15 samples.

Results

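The data compared cells depleted of Twist1 with the cells they came from. Both are lines of 4T1, a transplantable mouse mammary carcinoma line known for spreading to distant organs. The members were the 3 samples titled as Tw1KD cells and the 3 titled as parental 4T1 cells, which is 6 of the 15 samples of the series and 2 of its 5 lines. The labels give the Tw1KD line as 4T1 with its Twist1 depleted and the parental line as 4T1 with no such change. The other 9 samples were Tw1KD cells carrying a Twist1 construct, wild-type or with S42A or S42D, 3 samples each. They entered the fit, where they shaped the estimate of spread, and the choice of probe sets. Apart from that, only their levels are set side by side here. Per the labels' protocols, cells stood at 70% confluency in DMEM containing 4 µg/ml puromycin and 800 µg/ml G418. The protocol is the same text for all samples, so it is not known whether parental cells also received these drugs. How Twist1 was depleted, and whether the Tw1KD line is 1 clone, are not given in the sources used here. RNA (100 ng) was read on arrays with 34760 probe sets, and the values are log2 intensities. The labels do not say that replicates were separate cultures, so p-values measure only the spread between the samples within lines.

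Twist1 is a basic helix-loop-helix (bHLH) transcription factor. It binds DNA at E-box sequences as a dimer with an E protein, and Id proteins, which lack a DNA-binding region, compete for the same E proteins. In mammary carcinoma cells Twist1 is known as an inducer of epithelial-mesenchymal transition (EMT), in which cells lose cadherin junctions and desmosomes and gain motility. It acts beside other EMT factors of the Snail and Zeb families. TGF-beta and PDGF receptor signalling are both known partners of that programme.

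A gene was called when limma's moderated test gave a Benjamini-Hochberg adjusted p under 0.05 over all 19937 genes. Differences below are Tw1KD minus parental on the log2 scale ± standard error, and levels are log2 intensities ± standard deviation, over 3 arrays per line. Of all genes, 7242 (36.3%) were called. Higher in Tw1KD cells were 3970 (19.9%) and lower were 3272 (16.4%). Most of these changes were small: 5653 were under 1.5-fold, and the smallest called difference was 0.0918. At least 2-fold changes were called upward for 206 genes (1.03%) and downward for 323 (1.62%). At least 8-fold changes numbered 10 upward and 15 downward. The median difference over all genes was 0.0051. Of the called genes 54.8% were higher, and with each array centred on its median, which moved all genes by 0.05, 65.2% were. The counts of members below are to be read against these shares. In 6962 of the 7242 called genes the arrays of the 2 lines did not overlap, so a lack of overlap adds little to a call. Array correlations were 0.997 to 0.999 within the lines and 0.985 to 0.987 between them. The 3 arrays per line limit the precision, and the authors' scaling between arrays is not given.

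Differences were also shifted along chromosomes. With genes placed on chromosomes by the GRCm38.p6 gene table, the median difference of the brighter genes (mean at or above 7.28, the median gene) was 0.29 for 259 genes of chromosome X, 0.25 for chromosome 19, 0.24 for chromosome 12 and 0.22 for chromosome 14. It was -0.12 for chromosome 9 and -0.1 for chromosome 4. Around single genes, the median of the 30 nearest brighter genes ran from -0.55 to 0.59. It was above 0.2 for 1527 genes and below -0.2 for 441 of 9962. Small differences of neighbouring genes are therefore not independent of each other, and the source of these shifts was not tested. Subtracting the neighbours' median from each brighter gene, an alternative chosen after seeing the data and called the neighbour correction below, left 6771 genes called, 5625 of them among the 7242 with the same direction.

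**Figure D1:**
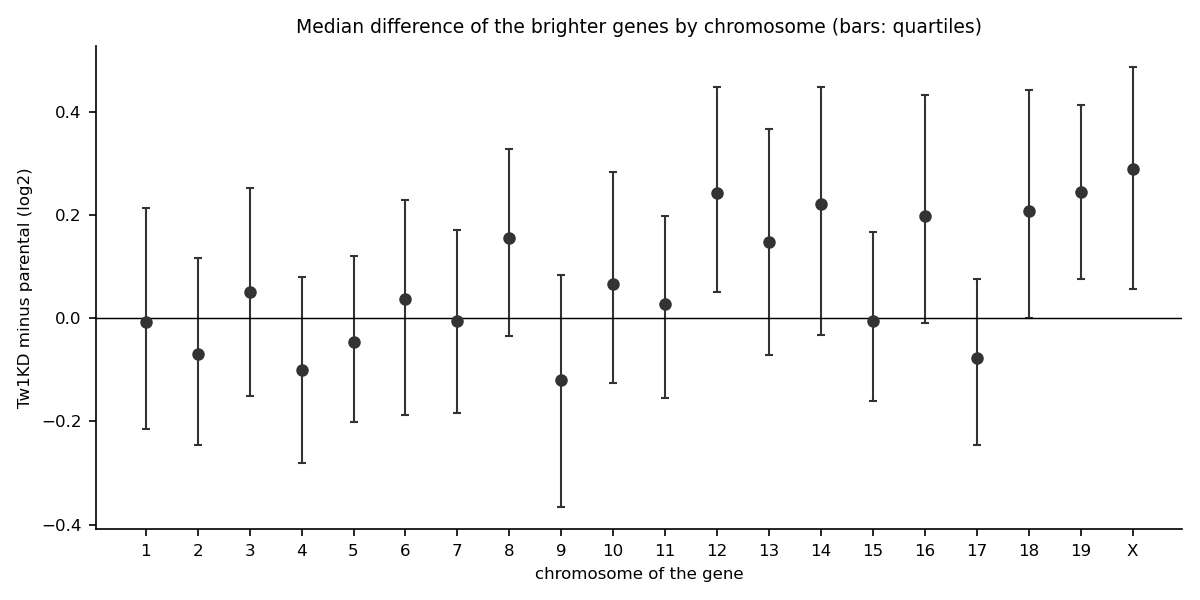
Tw1KD minus parental difference (log2, vertical axis) of the brighter genes on each chromosome (horizontal axis); points are medians and bars run from the lower to the upper quartile. Chromosome X lies highest at 0.29 and chromosome 9 lowest at -0.12, while most quartile ranges cross 0.

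The depletion itself was read at the Twist1 transcript. Twist1 read 9.01, 9.03 and 9.07 on the parental arrays and 7.47, 7.23 and 7.35 on the Tw1KD arrays. The groups did not overlap, and Twist1 fell by 1.69 ± 0.080, a 3.22-fold change of intensity (limma, adjusted p = 7.1e-10). Its level was 8.33 ± 0.16 with wild-type Twist1, 8.7 ± 0.099 with S42A and 9.0 ± 0.058 with S42D. Among the factors that share or contest its partners, the paralogue Twist2 (0.025 ± 0.11) and the E protein gene Tcf12 (0.060 ± 0.040) were not called, while the E protein genes Tcf3 (-0.17 ± 0.038) and Tcf4 (-0.2 ± 0.035) fell slightly. The Id inhibitors moved apart. Parental arrays gave 8.78, 8.63 and 8.79 for Id1 and Tw1KD arrays 9.99, 9.997 and 9.94. Id1 rose by 1.24 ± 0.051 (2.37-fold, limma, adjusted p = 1.6e-10) with no overlap between the lines. Id2 moved the other way. Log2 values of Id2 were 11.74, 11.72 and 11.78 in parental cells and 11.18, 10.96 and 11.02 in Tw1KD cells. It fell by 0.69 ± 0.053, again without overlap, and Id3 (-0.047 ± 0.082) and Id4 (0.053 ± 0.076) were not called. The related factors Hand1 (0.013 ± 0.077) and Hand2 (-0.078 ± 0.095) were not called either. In all, 1 of 11 genes of this list was called higher and 4 lower. Id1 stood at 10.16 ± 0.059 with wild-type Twist1, 9.76 ± 0.060 with S42A and 9.12 ± 0.039 with S42D, so it was also above the parental level in each line that carried a Twist1 construct.

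Of 22 other transcription factors linked to EMT, 4 were called higher and 8 lower (18.2% and 36.4%, against 19.9% and 16.4% of all genes), with a median of -0.022. The count of 4 became 2 without any 1 of the parental arrays, with only 6 arrays fitted and with all probe sets in the fit. The SoxC factor gene Sox4 (-0.93 ± 0.038), the Zeb family repressor gene Zeb2 (-0.85 ± 0.046) and the forkhead factor genes Foxc1 (-0.84 ± 0.064) and Foxq1 (-0.49 ± 0.087) fell most. Zeb2 measured 10.3, 10.29 and 10.33 in the 3 parental samples and 9.47, 9.36 and 9.55 in the 3 Tw1KD samples. All 3 Tw1KD arrays lay below all parental ones. Lef1, a partner of beta-catenin (-0.44 ± 0.092), and Ets1 (-0.43 ± 0.040) fell as well, whereas Ets2 rose by 0.79 ± 0.057. Snai2 (0.00065 ± 0.064) was not called. Snai1 was called lower (-0.22 ± 0.054), but not when only these 6 arrays were fitted. Zeb1 was called at 0.16 ± 0.063 and lost that call under 9 of 16 alternatives, among them the omission of any of the parental arrays or of Tw1KD replicate 1 or 2 (0.15 to 0.17, and 0.12 without Tw1KD replicate 2). The Foxc2 difference of 0.095 ± 0.054 was not called, though it was without Tw1KD replicate 2 (0.15). No member of this list reached a 2-fold change.

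Many epithelial genes were higher in Tw1KD cells. Of 95 measured genes in 6 lists, 44 were called higher (46.3%, against 19.9% of all genes) and 11 lower (11.6%, against 16.4%). At least 2-fold, 17 rose and 1, Esrp1, fell. The median difference was 0.12. Genes called at least 2-fold higher included Cdh1, the desmosome genes Dsp and Dsg2, the claudin genes Cldn3 and Cldn4 and the membrane protease gene St14, while other members of the same families were not called.

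Cadherins join cells through catenins. In parental cells Cdh1 was at 10.33, 10.31 and 10.29, and in Tw1KD cells at 11.45, 11.46 and 11.46. Cdh1, which encodes E-cadherin, rose by 1.15 ± 0.045 (2.21-fold, limma, adjusted p = 9.7e-11) with no overlap between the lines. In the lines with a construct Cdh1 was at 8.52 ± 0.0034 with wild-type Twist1, 6.34 ± 0.076 with S42A and 7.5 ± 0.068 with S42D, below parental cells in each. Nectin1, an adhesion molecule that works beside cadherins, rose by 0.61 ± 0.065, and Nectin2 fell by 0.38 ± 0.054. The p120 catenin gene Ctnnd1 (-0.26 ± 0.046) fell. Nectin3 (0.32 ± 0.047) and the alpha-catenin gene Ctnna1 (0.21 ± 0.038) were called higher and the afadin gene Afdn (-0.18 ± 0.040) lower. None of these 3 calls held with the neighbour correction (-0.05, 0.06 and -0.04). The N-cadherin gene Cdh2 (-0.086 ± 0.061), the beta-catenin gene Ctnnb1 (-0.048 ± 0.034), Cdh3 (0.019 ± 0.081), Cdh4 (-0.026 ± 0.078), Cdh6 (0.011 ± 0.1), Cdh11 (0.060 ± 0.072), Cdh13 (-0.0091 ± 0.077) and Nectin4 (-0.034 ± 0.075) were not called. Cdh2, which lay near the array background, was called lower without Tw1KD replicate 2 (-0.17). Of the 7 cadherin genes in the list, Cdh1 was the one that was called.

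Desmosomes anchor intermediate filaments at cell contacts. Here 7 of 13 genes were called higher and 1 lower. The Dsp values were 8.41, 8.54 and 8.59 in parental cells and 10.62, 10.79 and 10.74 in Tw1KD cells. Dsp, which encodes the linker protein desmoplakin, rose by 2.21 ± 0.087 (4.62-fold). Array by array, Dsg2 gave 6.92, 7.0 and 7.16 in parental cells and 9.38, 9.23 and 9.33 in Tw1KD cells. Dsg2, a desmosomal cadherin gene, rose by 2.29 ± 0.1 (4.88-fold). Neither gene overlapped between the lines. Perp, a membrane protein of desmosomes (0.78 ± 0.091), the plakophilin genes Pkp2 (0.66 ± 0.056) and Pkp3 (0.49 ± 0.049) and Dsg3 (0.31 ± 0.079) rose less. The desmocollin genes Dsc2 (0.064 ± 0.068) and Dsc3 (0.046 ± 0.078), the plakoglobin gene Jup (0.080 ± 0.040), Evpl (0.032 ± 0.073) and Pkp1 (0.19 ± 0.11) were not called. The periplakin gene Ppl (0.21 ± 0.058) was called higher and Pkp4 (-0.13 ± 0.040) lower. Ppl lost its call without parental replicate 2 (0.16) or Tw1KD replicate 3 (0.16), with only 6 arrays fitted and with the neighbour correction (0.04). Pkp4 lost its own without parental replicate 1 (-0.11) or Tw1KD replicate 2 (-0.11), with only 6 arrays fitted and with median centring (-0.08), and was called higher with the neighbour correction (0.12).

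Tight junction and polarity genes had 15 of 26 members called higher and 2 lower, with a median of 0.31. Tight junctions seal the space between epithelial cells. The tricellulin gene Marveld2 rose by 1.77 ± 0.072. Intensities of Marveld2 were 6.79, 6.95 and 6.95 in parental cells and 8.71, 8.59 and 8.69 in Tw1KD cells. Claudins form the strands of the junction, and Cldn4 (1.45 ± 0.12), Cldn3 (1.2 ± 0.11) and Cldn6 (0.76 ± 0.076) rose. The apical polarity genes Crb3 (1.15 ± 0.089), Pard6b (0.82 ± 0.038) and Prkcz (0.41 ± 0.066) rose too, as did the occludin gene Ocln (0.54 ± 0.078) and the cingulin gene Cgn (0.48 ± 0.089). The other probe set of Prkcz was not called (0.11). The scaffold gene Tjp1, whose product is ZO-1, fell by 0.28 ± 0.042. Tjp3 (0.014 ± 0.072), Cldn8 (-0.0083 ± 0.059) and Prkci (-0.05 ± 0.035) were not called.

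Of the 13 genes for Epcam, membrane-bound serine proteases and their partners, 8 were called higher and none lower, and their median of 0.64 was the highest of the 53 lists. Mpzl2, a junctional adhesion molecule of epithelia, rose by 2.13 ± 0.11 (4.36-fold). For Mpzl2 the arrays gave 9.05, 8.78 and 8.96 in parental cells and 10.96, 11.01 and 11.21 in Tw1KD cells. The matriptase gene St14 (1.46 ± 0.060), the kallikrein genes Klk10 (1.84 ± 0.051) and Klk8 (0.64 ± 0.049), and the serine protease genes Prss22 (1.28 ± 0.059) and Prss8 (0.52 ± 0.078) rose. Epcam read 7.91, 8.37 and 8.8 on the parental arrays and 9.95, 9.22 and 10.1 on the Tw1KD arrays. Epcam, an epithelial adhesion molecule, rose by 1.4 ± 0.21 (limma, adjusted p = 9.2e-05), and its arrays spread more within a line than those of the other genes named here. Kallikrein genes are close paralogues, so the member read is less certain. The matriptase inhibitor gene Spint2 (0.030 ± 0.036) was not called.

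Keratins are the intermediate filaments of epithelia. The simple epithelial pair Krt8 and Krt18 lay above the upper quartile of every array in both lines. Krt8 fell slightly (-0.17 ± 0.034) and Krt18 (0.079 ± 0.041) was not called. Parental arrays gave 13.04, 13.03 and 13.1 for Krt8 and Tw1KD arrays 12.9, 12.88 and 12.89. Krt80 (1.2 ± 0.045), Krt19 (1.03 ± 0.081) and Krt7 (0.9 ± 0.056) rose. The basal keratin genes Krt5 (-0.1 ± 0.062), Krt14 (0.2 ± 0.080), Krt15 (0.0024 ± 0.093) and Krt17 (0.072 ± 0.043), and Krt6a (0.1 ± 0.14), Krt20 (-0.011 ± 0.079) and Krt23 (-0.069 ± 0.12), were not called. In all, 3 of 12 keratin genes were called higher and 1 lower. With median centring 6 were called higher, among them Krt14 (0.25), Krt17 (0.12) and Krt18 (0.13), and with quantile normalization 5.

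Of 16 regulators of epithelial identity 7 were called higher and 4 lower. Foxa1, a pioneer factor of luminal mammary cells, rose by 1.56 ± 0.083, the zinc finger repressor gene Ovol1 by 1.27 ± 0.097, and Klf5 by 0.64 ± 0.041. Grhl2 (0.53 ± 0.086), Grhl1 (0.46 ± 0.079) and Elf3 (0.55 ± 0.070) rose as well. The luminal factor gene Gata3 (-0.81 ± 0.036), Klf4 (-0.66 ± 0.058) and Trp63 (-0.42 ± 0.052) fell. The paralogous splicing regulators Esrp1 and Esrp2, which both promote epithelial exon choice, moved in opposite directions. Log2 values of Esrp1 were 8.01, 7.64 and 7.88 in parental cells and 5.27, 5.27 and 5.06 in Tw1KD cells. Esrp2 measured 8.38, 8.28 and 8.37 in the 3 parental samples and 9.69, 9.57 and 9.82 in the 3 Tw1KD samples. Esrp1 fell by 2.64 ± 0.086 and Esrp2 rose by 1.35 ± 0.064 (2.54-fold), each without overlap. Esrp1 was at 5.05 ± 0.085 with wild-type Twist1, 5.22 ± 0.075 with S42A and 5.15 ± 0.040 with S42D, which is near its Tw1KD level in all 3 lines. All of these levels, that of Tw1KD cells included, lie near the background, so the size of the Esrp1 fall is not well set.

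**Figure D2:**
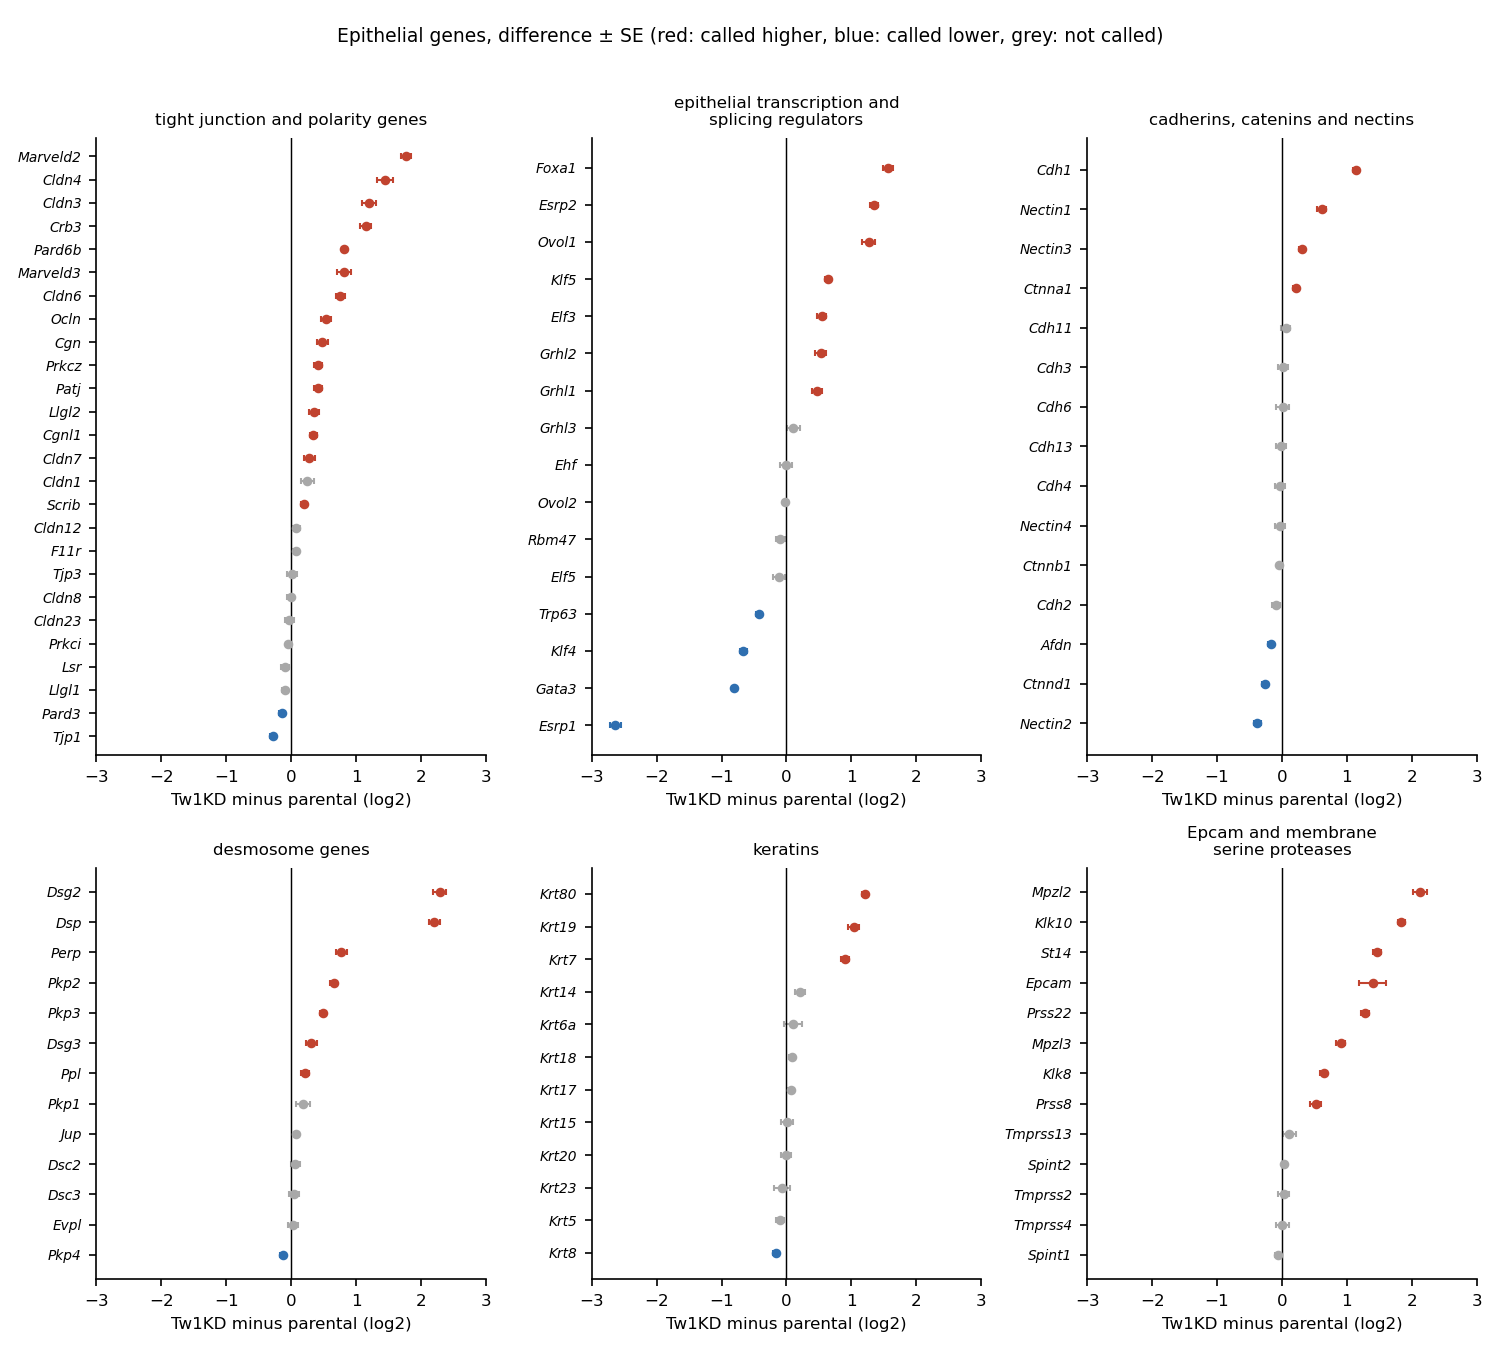
Tw1KD minus parental differences (log2, horizontal axis, ± standard error) of the 6 epithelial lists, 1 gene per line, in red where called higher, blue where called lower and grey where not called. Cdh1 leads the cadherins at 1.15, Dsg2 and Dsp lead the desmosome genes above 2, and Esrp1 lies far to the left at -2.64 while Esrp2 lies at 1.35.

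Promoters of the genes were searched for E-boxes, the class of element that Twist1, Snail and Zeb factors bind. The windows held 250 bases before and 50 after the start in RefSeq's table (build GRCm38.p6), and 15613 of the 19937 genes had one. One window was searched per gene. For the 2637 genes with more than 1 window it was the first listed, and their other starts were not searched. The general form CANNTG was in 68% of all windows, in 80% of the 145 windows of genes called at least 2-fold higher and in 66.5% of the 236 windows of genes called at least 2-fold lower. CATCTG or its reverse complement CAGATG, a form that Twist1 dimers are known to bind, was in 14.1%, 17.2% and 15.7%. CAGCTG was in 15.9%, 21.4% and 23.7%. CACCTG or its reverse complement CAGGTG, the form known from binding of Snail and Zeb factors, was searched after the data were seen. It was in 19.2% of all windows, 37.2% of those of at least 2-fold rises (54 of 145) and 14.8% of those of at least 2-fold falls. By size of rise, its share was 17.1% under 1.5-fold, 23.4% from 1.5 to 2-fold and 37.2% beyond. The mean GC content of those windows was 61.8%, 63.0% and 59.4% in the same order. Outside the epithelial lists 34.3% of 137 windows of at least 2-fold rises held it. Of the 44 epithelial genes called higher 21 had a window, and 14 of those held it, beside 11 of 32 windows of the other members. Cdh1, Dsg2, Mpzl2, St14, Esrp2 and Krt19 were among those without a window. These forms all lie within CANNTG, and no test was made of any share. A match is a description of letters, not of binding.

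Printed here are 4 epithelial genes called higher with at least 2 matches to CACCTG or CAGGTG in the 200 bases before the start. They were chosen for holding these matches, so they show only where the matches lie in these 4 genes. Other epithelial genes called higher may also hold at least 2 matches, so the 4 are examples and not a complete set. All sequences run 5′ to 3′ on the gene's strand and end at the base before the start, and capitals mark CACCTG and CAGGTG.
Crb3: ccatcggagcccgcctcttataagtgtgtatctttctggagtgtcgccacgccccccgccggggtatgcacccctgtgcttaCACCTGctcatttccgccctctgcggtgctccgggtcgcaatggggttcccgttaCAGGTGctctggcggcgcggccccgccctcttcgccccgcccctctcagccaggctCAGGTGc
Epcam: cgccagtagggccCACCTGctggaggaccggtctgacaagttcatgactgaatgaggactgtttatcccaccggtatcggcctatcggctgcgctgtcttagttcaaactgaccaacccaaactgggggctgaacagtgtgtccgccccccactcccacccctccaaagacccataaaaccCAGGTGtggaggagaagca
Pard6b: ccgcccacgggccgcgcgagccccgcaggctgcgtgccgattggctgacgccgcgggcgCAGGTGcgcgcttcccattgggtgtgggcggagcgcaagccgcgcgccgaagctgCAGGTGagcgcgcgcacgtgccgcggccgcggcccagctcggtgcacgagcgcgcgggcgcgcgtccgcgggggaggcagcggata
Prkcz: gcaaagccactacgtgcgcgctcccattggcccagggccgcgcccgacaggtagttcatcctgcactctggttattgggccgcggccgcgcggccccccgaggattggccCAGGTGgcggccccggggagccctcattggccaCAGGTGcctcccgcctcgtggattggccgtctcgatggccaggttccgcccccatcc
Crb3 (chr17:57062001-57062200, plus strand) held 3 matches, at -118, -63 and -7 from the start, and rose by 1.15 ± 0.089. In parental cells Crb3 was at 7.1, 7.06 and 7.07, and in Tw1KD cells at 8.37, 8.11 and 8.2. Epcam (chr17:87635779-87635978, plus strand) held 2, at -187 and -19. Pard6b (chr2:168080804-168081003, plus strand) held 2, at -141 and -86, and rose by 0.82 ± 0.038. Prkcz (chr4:155361429-155361628, minus strand) held 2, at -90 and -57, and rose by 0.41 ± 0.066. Among Snail and Zeb transcripts in the same cells, Zeb2 fell (-0.85) and Snai1 fell slightly. Snai2 was not called and Zeb1 was called slightly higher, with the limits on Snai1 and Zeb1 given above. Whether any factor occupies these sites was not tested.

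Of 17 laminin and basement membrane genes 4 were called higher (23.5%) and 3 lower (17.6%), near the shares of all genes, with a median of -0.0084. With array weights 6 were called lower. Laminin-332, an epithelial laminin, holds the products of Lama3 and Lamb3. Lamb3 rose by 1.93 ± 0.060 and Lama3 by 0.76 ± 0.075, and Itgb4 (0.56 ± 0.049), whose product binds that laminin, rose too. The Lamb3 values were 7.81, 7.74 and 7.74 in parental cells and 9.63, 9.62 and 9.82 in Tw1KD cells. Lamb2, a chain of other laminins, fell by 0.51 ± 0.041. Among integrin subunit genes 6 of 20 were called higher and 4 lower. Itgb7 rose by 2.11 ± 0.067 and Itgb6, an epithelial subunit, by 0.79 ± 0.077. Itga1, a collagen receptor subunit gene, fell by 2.48 ± 0.072 (5.56-fold), and Itga8 (-0.89 ± 0.069), Itga7 (-0.48 ± 0.070) and Itgb1 (-0.4 ± 0.042) fell. Array by array, Itga1 gave 10.7, 10.63 and 10.74 in parental cells and 8.24, 8.03 and 8.37 in Tw1KD cells. The lines did not overlap.

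Among mesenchymal genes more were called lower than higher, and vimentin was not among them. Of 19 mesenchymal and contractile markers 7 were called lower (36.8%, against 16.4% of all genes) and 1 higher, with a median of -0.074. Vim, which encodes the mesenchymal filament vimentin, was not called (-0.024 ± 0.033). Intensities of Vim were 13.48, 13.48 and 13.5 in parental cells and 13.46, 13.45 and 13.47 in Tw1KD cells. Those values lie near the array maximum, where differences can be compressed. The matricellular genes Sparc (-1.06 ± 0.033) and Tnc (-0.87 ± 0.097), the tropomyosin gene Tpm1 (-0.59 ± 0.049) and the collagen cross-linking enzyme gene Loxl1 (-0.55 ± 0.097) fell. For Sparc the arrays gave 12.93, 12.93 and 12.92 in parental cells and 11.86, 11.86 and 11.86 in Tw1KD cells. Acta2 (-0.15 ± 0.058; -0.18 and called without Tw1KD replicate 2), Tagln (0.049 ± 0.084), Cnn1 (0.044 ± 0.078) and Postn (0.025 ± 0.080) were not called. Of 24 collagen chain genes 3 were called higher and 3 lower (5 without Tw1KD replicate 2). Col6a1 fell by 2.18 ± 0.056, and Col4a2 (0.37 ± 0.052) rose. Col6a1 read 9.87, 9.78 and 9.85 on the parental arrays and 7.52, 7.78 and 7.67 on the Tw1KD arrays. The fibrillar collagen genes Col1a1 (-0.22 ± 0.091; -0.28 and called without Tw1KD replicate 2), Col1a2 (-0.063 ± 0.094) and Col3a1 (-0.015 ± 0.097) were not called. Of 12 small leucine-rich proteoglycan genes 3 were called lower and 1 higher. Ogn (-4.85 ± 0.11), Bgn (-1.24 ± 0.094) and Dcn (-0.56 ± 0.087) fell. Parental arrays gave 10.27, 10.14 and 10.18 for Ogn and Tw1KD arrays 5.17, 5.33 and 5.53. Ogn went from a level in the upper quartile to one near the background, so the size of its fall is not well set.

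CCN proteins are matricellular factors, and several are known targets of YAP and TEAD. In this list 11 of 17 genes were called lower (64.7%) and 3 higher, with a median of -0.27. Log2 values of Ccn2 were 11.05, 11.02 and 11.06 in parental cells and 8.23, 8.28 and 8.19 in Tw1KD cells. Ccn2, also known as connective tissue growth factor, fell by 2.81 ± 0.047 (7.01-fold, limma, adjusted p = 3.1e-14). Ccn1 measured 11.74, 11.74 and 11.82 in the 3 parental samples and 10.17, 10.19 and 10.12 in the 3 Tw1KD samples. Ccn1 fell by 1.6 ± 0.037. Ccn4 (-2.32 ± 0.073), Ccn3 (-1.81 ± 0.063) and Ccn5 (-0.74 ± 0.039) fell too, so all 5 CCN genes of the list were lower. Tead1 (-0.4 ± 0.043) and Tead2 (-0.48 ± 0.075) fell and Tead4 (0.66 ± 0.051) rose. Yap1 (-0.051 ± 0.036) and the YAP target gene Ankrd1 (-0.081 ± 0.039) were not called, but were with the neighbour correction (0.25 and -0.41). Ccn4 was at 7.66 ± 0.070 with wild-type Twist1, 7.68 ± 0.052 with S42A and 7.78 ± 0.044 with S42D, against 9.65, 9.64 and 9.92 in parental cells and 7.39, 7.52 and 7.32 in Tw1KD cells.

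Genes of extracellular proteolysis fell more often than they rose. Among 50 genes in 3 lists 22 were called lower (44.0%) and 7 higher (14%). Of 19 matrix metalloproteinase genes 8 were called lower (5 with median centring or with only 6 arrays fitted) and 1 higher. In parental cells Mmp3 was at 11.1, 11.12 and 11.22, and in Tw1KD cells at 9.27, 8.99 and 8.91. Mmp3, stromelysin, fell by 2.09 ± 0.072 (4.26-fold). Mmp13 (-1.17 ± 0.1), Mmp9 (-0.57 ± 0.057), Mmp19 (-0.49 ± 0.045) and Mmp1a (-0.3 ± 0.060) fell as well. The gelatinase gene Mmp2 was not called (-0.11 ± 0.068). Their inhibitors divided: Timp1 rose by 0.75 ± 0.049 and Reck, a membrane-anchored inhibitor, fell by 1.03 ± 0.049, while Timp3 (0.1 ± 0.12) was not called. Adamts10 (-1.26 ± 0.072), Adamts4 (-1.19 ± 0.059) and Adamts9 (-0.59 ± 0.053) fell and Adamts1 (0.74 ± 0.084) rose. In the plasminogen system the tissue activator gene Plat fell by 2.41 ± 0.091, and the urokinase gene Plau (0.54 ± 0.050) and its receptor gene Plaur (0.8 ± 0.049) rose. The Plat values were 9.56, 9.52 and 9.61 in parental cells and 7.3, 6.84 and 7.3 in Tw1KD cells. Array by array, Plau gave 10.91, 10.9 and 10.94 in parental cells and 11.56, 11.33 and 11.48 in Tw1KD cells. Serpins also differed in direction. Intensities of Serpinb5 were 4.57, 4.39 and 4.53 in parental cells and 7.05, 6.81 and 7.29 in Tw1KD cells. Serpinb5, which encodes the epithelial serpin maspin, rose by 2.55 ± 0.11, whereas Serpinf1, which encodes the anti-angiogenic factor PEDF, fell by 2.29 ± 0.071. Serpinb8 (-1.18 ± 0.073) and Serpinb9 (-1.1 ± 0.088) fell.

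TGF-beta family ligands include the TGF-betas, activins and BMPs. Of 22 ligand and binding protein genes 3 were called higher and 7 lower, with a median of -0.0055, and the falls of 2 ligands stood apart in size. For Inhba the arrays gave 10.54, 10.35 and 10.61 in parental cells and 6.57, 6.42 and 6.13 in Tw1KD cells. Inhba, the activin A subunit gene, fell by 4.13 ± 0.099 (17.5-fold, limma, adjusted p = 7.4e-13). Tgfb2 read 8.89, 8.62 and 8.8 on the parental arrays and 5.71, 5.97 and 5.87 on the Tw1KD arrays. Tgfb2 fell by 2.92 ± 0.090 (7.55-fold). Neither overlapped between the lines. Tgfb1 (0.078 ± 0.039) was not called, though it was without parental replicate 1 (0.11), and Tgfb3 (-0.15 ± 0.041) was called lower but not with median centring (-0.1) or with only 6 arrays fitted. The latent TGF-beta binding protein gene Ltbp2 (-0.64 ± 0.049), Gdf11 (-0.41 ± 0.059) and Bmp7 (-0.24 ± 0.049) fell. Fstl3, an activin antagonist (0.61 ± 0.037), and Ltbp4 (0.23 ± 0.039) rose. The calls of Ltbp1 (-0.19 ± 0.038) and Ltbp3 (0.14 ± 0.038) were lost with the neighbour correction (-0.06 and -0.01), and that of Ltbp3 also with only 6 arrays fitted. Bmp2 (0.056 ± 0.062), Bmp4 (-0.055 ± 0.086), Bmp6 (-0.068 ± 0.070), Inha (-0.03 ± 0.074), Inhbb (0.032 ± 0.068), Chrd (0.024 ± 0.054), Nog (0.018 ± 0.091), Grem1 (0.023 ± 0.083), Fst (0.0020 ± 0.093) and Fstl1 (-0.013 ± 0.080) were not called. Bmp1 (0.086 ± 0.036) was not called, and was called lower with the neighbour correction (-0.22) and higher with median centring (0.14). Inhba was at 8.15 ± 0.0039 with wild-type Twist1, 7.8 ± 0.1 with S42A and 10.47 ± 0.11 with S42D and Tgfb2 at 7.12 ± 0.11 with wild-type Twist1, 7.6 ± 0.13 with S42A and 8.61 ± 0.079 with S42D.

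Receptors and Smads of the family had 11 of 25 members called lower (44.0%) and 5 higher. The 5 became 2 without parental replicate 3 or Tw1KD replicate 3, with only 6 arrays fitted and with the neighbour correction, and 3 without parental replicate 2. The co-receptor genes Tgfbr3 (-0.95 ± 0.049) and Eng (-0.63 ± 0.037) and the type 2 receptor gene Tgfbr2 (-0.39 ± 0.037) fell. Smad3, a signal transducer of TGF-beta and activin, fell by 0.7 ± 0.036, and the inhibitory gene Smad6 by 0.5 ± 0.049. Parental arrays gave 11.85, 11.79 and 11.88 for Smad3 and Tw1KD arrays 11.11, 11.17 and 11.14. Smad2 rose by 0.31 ± 0.059 and the ubiquitin ligase gene Smurf1 by 0.45 ± 0.038. Smad4, the shared partner, was not called (0.0077 ± 0.034), except as lower with the neighbour correction (-0.25).

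PDGF genes gave the lowest median of all 53 lists, -0.99 over 6 genes, of which 5 were called lower and none higher. PDGF receptors are mesenchymal tyrosine kinases. Log2 values of Pdgfra were 11.34, 11.23 and 11.3 in parental cells and 9.61, 9.6 and 9.58 in Tw1KD cells. Pdgfra fell by 1.69 ± 0.043 (3.22-fold). Pdgfrb measured 8.48, 8.41 and 8.46 in the 3 parental samples and 6.39, 6.55 and 6.15 in the 3 Tw1KD samples. Pdgfrb fell by 2.09 ± 0.076 (4.25-fold). In parental cells Pdgfc was at 9.1, 9.01 and 9.05, and in Tw1KD cells at 6.5, 6.58 and 6.36. The ligand gene Pdgfc fell by 2.58 ± 0.073 (5.97-fold). In each of the 3 genes the lines did not overlap. The ligand gene Pdgfa (-0.29 ± 0.038) fell less. Pdgfb (-0.16 ± 0.041) was called lower but not with median centring (-0.11) or only 6 arrays fitted, and Pdgfd (-0.067 ± 0.050) was not called. Pdgfra was at 9.83 ± 0.050 with wild-type Twist1, 10.85 ± 0.032 with S42A and 11.38 ± 0.051 with S42D, Pdgfrb at 7.93 ± 0.0095 with wild-type Twist1, 6.86 ± 0.064 with S42A and 10.55 ± 0.055 with S42D and Pdgfc at 5.52 ± 0.16 with wild-type Twist1, 8.63 ± 0.033 with S42A and 10.98 ± 0.054 with S42D.

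Among other receptor tyrosine kinases the fall of Fgfr1 was the largest. The Fgfr1 values were 9.91, 9.69 and 9.81 in parental cells and 6.83, 6.81 and 6.66 in Tw1KD cells. It fell by 3.03 ± 0.074 (8.18-fold), while the paralogues Fgfr2 (-0.051 ± 0.036), Fgfr3 (0.1 ± 0.057) and Fgfr4 (-0.023 ± 0.055) were not called. Erbb3 (0.94 ± 0.086), Epha2 (0.51 ± 0.047) and Erbb2 (0.31 ± 0.042) rose, and Egfr (0.013 ± 0.081) was not called. In the PI3K-Akt pathway the regulatory subunit gene Pik3r1 (-0.8 ± 0.055) fell and the phosphatase gene Inpp4b (0.68 ± 0.12) and Rptor (0.49 ± 0.045) rose. Mtor fell by 0.32 ± 0.044, and Akt2 (0.055 ± 0.035) was not called. In all, 7 of 31 genes of this list were called higher and 10 lower.

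Of 9 ligand genes of the ErbB receptors 4 were called higher and 1 lower. Btc, which encodes betacellulin, rose by 1.55 ± 0.1, and Hbegf (0.64 ± 0.044) and Tgfa (0.33 ± 0.046) rose. Nrg1, a ligand of ErbB3, fell by 2.02 ± 0.097. Array by array, Btc gave 7.18, 6.99 and 7.11 in parental cells and 8.77, 8.56 and 8.59 in Tw1KD cells. Intensities of Nrg1 were 8.93, 8.95 and 9.0 in parental cells and 6.64, 7.01 and 7.19 in Tw1KD cells. Feedback brakes of the ERK pathway divided as well, with 5 of 13 called higher and 7 lower. For Spry1 the arrays gave 11.38, 11.32 and 11.41 in parental cells and 8.72, 8.72 and 8.75 in Tw1KD cells. Spry1 fell by 2.64 ± 0.057 (6.23-fold). Its paralogue Spry4 rose by 0.71 ± 0.055, and Spry2 was not called (-0.12 ± 0.049), except as lower with the neighbour correction (-0.42) and 2 other alternatives. The phosphatase gene Dusp5 rose by 1.18 ± 0.051, and Dusp6 (-0.36 ± 0.041) and Dusp1 (-0.4 ± 0.043) fell. Spred1 fell by 0.57 ± 0.048.

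The IGF system had 7 of 14 genes called lower and none higher. Igfbp7 read 12.8, 12.87 and 12.82 on the parental arrays and 9.01, 8.55 and 8.98 on the Tw1KD arrays. Igfbp7, a secreted binding protein, fell by 3.98 ± 0.087 (15.8-fold). The receptor substrate gene Irs1 fell by 1.13 ± 0.061 in the probe set used, while its other probe set gave -0.12. The ligand gene Igf2 (-0.97 ± 0.068), the receptor gene Igf1r (-0.44 ± 0.055), Irs2 (-0.39 ± 0.054) and Insr (-0.32 ± 0.060) fell too. Igf1 (-0.085 ± 0.061), Igfbp3 (0.057 ± 0.11) and Igfbp5 (0.12 ± 0.094) were not called.

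Wnt components showed a large gain of 1 ligand and a large loss of 1 antagonist. Parental arrays gave 6.6, 6.56 and 6.5 for Wnt7a and Tw1KD arrays 9.81, 9.4 and 9.42. Wnt7a rose by 2.99 ± 0.091 (7.93-fold). Log2 values of Sfrp1 were 9.49, 9.16 and 9.41 in parental cells and 5.27, 5.25 and 5.18 in Tw1KD cells. Sfrp1, a secreted Wnt antagonist, fell by 4.12 ± 0.081 to a level near the background. The Wnt-inactivating enzyme gene Notum rose by 0.98 ± 0.12. Wnt9a (0.44 ± 0.064) rose, and the receptor genes Fzd4 (-0.9 ± 0.13), Fzd2 (-0.68 ± 0.057), Fzd1 (-0.61 ± 0.1) and Ror1 (-0.6 ± 0.091) fell. The Wnt target gene Axin2 was not called (0.018 ± 0.082). Of 24 ligand and receptor genes 6 were called higher and 8 lower, and of 12 antagonists 1 and 2. Sfrp1 was at 5.15 ± 0.082 with wild-type Twist1, 5.31 ± 0.13 with S42A and 5.16 ± 0.032 with S42D, and Wnt7a at 6.07 ± 0.081 with wild-type Twist1, 6.01 ± 0.11 with S42A and 6.03 ± 0.031 with S42D.

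Genes of vessel growth were more often lower than higher. Of 15 genes of the angiopoietin and VEGF system 7 were called lower and 3 higher. Angpt1 measured 9.82, 9.74 and 9.87 in the 3 parental samples and 5.77, 5.68 and 6.15 in the 3 Tw1KD samples. Angpt1, the Tie2 ligand, fell by 3.95 ± 0.091 (15.4-fold). Angptl7 (-2.86 ± 0.086), the receptor gene Flt1 (-2.33 ± 0.081), the co-receptor gene Nrp1 (-2.21 ± 0.051) and the ligand gene Vegfc (-0.97 ± 0.086) fell. In parental cells Nrp1 was at 9.05, 9.1 and 9.1, and in Tw1KD cells at 6.76, 6.85 and 6.98. Vegfa (0.28 ± 0.037) and Vegfb (0.35 ± 0.041) rose slightly. The receptor for adrenomedullin and CGRP is built from the product of Calcrl and a RAMP. The Calcrl values were 10.52, 10.49 and 10.5 in parental cells and 6.43, 6.17 and 6.46 in Tw1KD cells. Calcrl fell by 4.15 ± 0.084 (17.7-fold), Ramp1 fell by 1.18 ± 0.071, and Ramp2 (-0.084 ± 0.085) and Ramp3 (0.072 ± 0.1) were not called. The ligand genes Calcb (1.02 ± 0.086) and Adm (0.6 ± 0.12) rose. Semaphorins and plexins, guidance ligands and their receptors, had 14 of 28 genes called lower (50%) and 1, Sema4d (0.55 ± 0.063), higher. The other probe set of Sema4d was not called and lay the other way (-0.14). Plxna4 (-1.29 ± 0.1), Sema6a (-1.17 ± 0.055), Sema6d (-1.06 ± 0.064), Sema4c (-0.85 ± 0.033) and Sema3f (-0.82 ± 0.039) fell most.

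**Figure D3:**
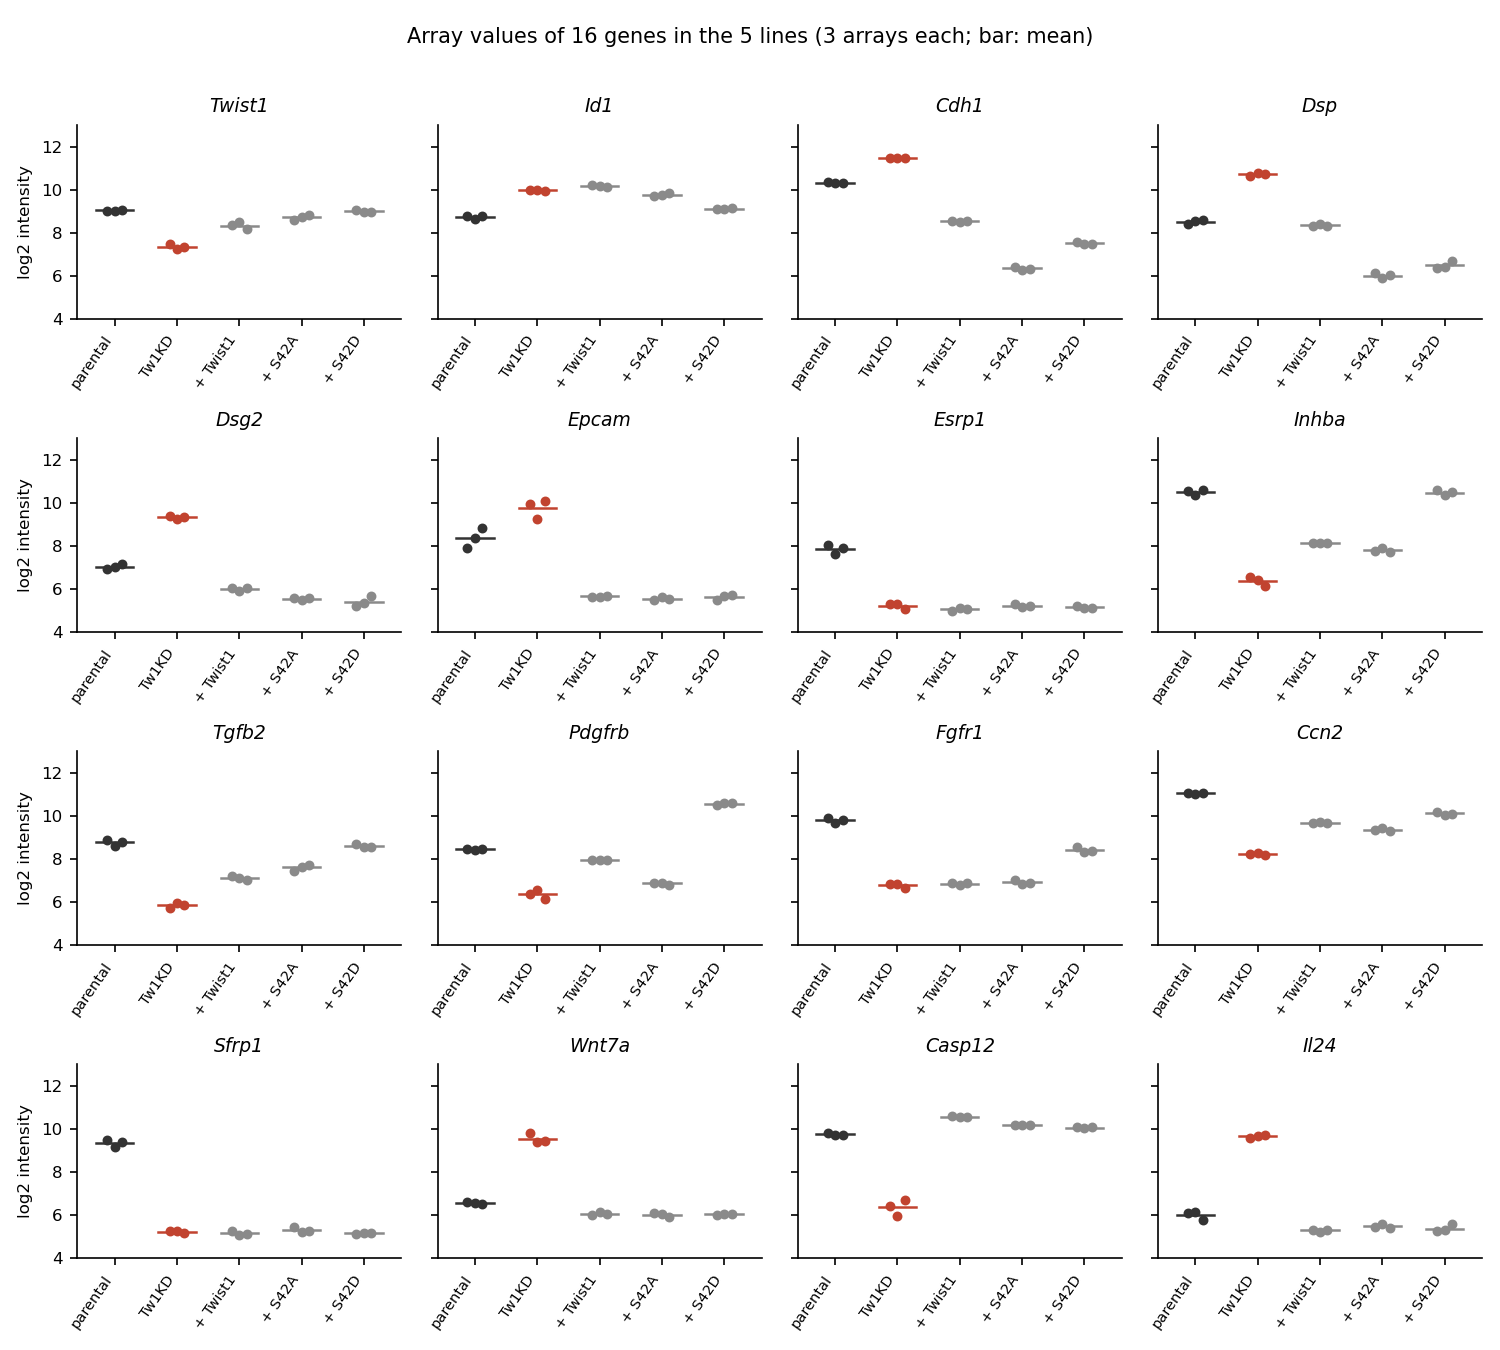
Log2 intensity (vertical axis) of 16 genes on each array of the 5 lines (horizontal axis); points are arrays and bars are means. Parental arrays are in black, Tw1KD arrays in red and lines with a Twist1 construct in grey. In every panel the 3 Tw1KD arrays lie apart from the 3 parental arrays, as with Inhba at 10.54, 10.35 and 10.61 in parental cells and 6.57, 6.42 and 6.13 in Tw1KD cells.

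Most chemokine genes were not called, and interleukin genes moved both ways. Of 28 chemokine genes 23 were not called. Called higher were 2 (7.14%, against 19.9% of all genes) and lower 3 (10.7%, against 16.4%). The 2 became 4 with median centring, and the 3 became 5 without parental replicate 3 and 6 without Tw1KD replicate 2. Cxcl16 rose by 1.99 ± 0.11, and Cxcl15 (-3.89 ± 0.095), the neutrophil chemokine gene Cxcl5 (-1.16 ± 0.084) and the monocyte chemokine gene Ccl2 (-0.92 ± 0.16) fell. Array by array, Cxcl16 gave 8.6, 8.48 and 8.45 in parental cells and 10.61, 10.36 and 10.53 in Tw1KD cells. Intensities of Cxcl15 were 8.83, 8.77 and 8.7 in parental cells and 5.03, 4.85 and 4.77 in Tw1KD cells. Cxcl1 (-0.057 ± 0.055), Cxcl10 (-0.011 ± 0.11) and Ccl5 (-0.041 ± 0.062) were not called. Of 22 interleukin and colony-stimulating factor genes 7 were called higher (31.8%) and 4 lower (18.2%). For Il24 the arrays gave 6.11, 6.15 and 5.79 in parental cells and 9.56, 9.69 and 9.73 in Tw1KD cells. Il24, a cytokine of the IL-10 family, rose by 3.64 ± 0.099 (12.5-fold). Lif (1.03 ± 0.078) and Clcf1 (1.16 ± 0.053), ligands that signal through gp130, rose, as did Csf3 (0.89 ± 0.075), which drives neutrophil production. Of 23 cytokine receptor genes 7 were called higher and 4 lower. Csf2rb (0.96 ± 0.098), the shared subunit gene for GM-CSF and related ligands, Il10rb (0.52 ± 0.054), Csf2rb2 (0.49 ± 0.058) and Il15ra (0.48 ± 0.073) rose, and Osmr (-1.09 ± 0.078), Il4ra (-0.65 ± 0.048), the gp130 gene Il6st (-0.53 ± 0.033) and Lifr (-0.46 ± 0.086) fell. Among the ligands, Il18 (-1.03 ± 0.13), Il15 (-0.93 ± 0.12), Csf1 (-0.5 ± 0.041) and Il11 (-0.44 ± 0.1) fell. Il6 (0.083 ± 0.064) and Il1a (-0.11 ± 0.081) were not called.

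Of 9 genes of inflammatory caspases and the inflammasome 5 were called lower and 2 higher. Casp1, Casp4 and Casp12 fell. Casp12 read 9.79, 9.74 and 9.74 on the parental arrays and 6.44, 5.98 and 6.68 on the Tw1KD arrays. Casp12 fell by 3.39 ± 0.12 (10.5-fold). Parental arrays gave 7.5, 7.36 and 7.69 for Casp1 and Tw1KD arrays 5.37, 5.3 and 5.68. Casp1, which processes IL-1 beta and IL-18, fell by 2.07 ± 0.097, and Casp4 fell by 1.84 ± 0.085. These 3 genes lie next to each other in the gene table, so their falls are not 3 separate observations. Aim2 (-0.62 ± 0.1) and the pore-forming Gsdmd (-0.53 ± 0.087) fell as well, while the gasdermin gene Gsdme (0.49 ± 0.056) and the inflammasome sensor gene Nlrp3 (0.32 ± 0.081; not called with only 6 arrays fitted) rose. Pycard (-0.029 ± 0.11) and Nlrc4 (0.057 ± 0.058) were not called. In the TNF and death receptor family 8 of 19 genes were called higher and 5 lower. Tnfsf9 (1.35 ± 0.087), Tnfrsf21 (1.26 ± 0.042) and the TRAIL receptor gene Tnfrsf10b (0.73 ± 0.048) rose, and so did the decoy receptor genes Tnfrsf23 (1.54 ± 0.050) and Tnfrsf22 (0.89 ± 0.038), which are close paralogues. Tnfrsf9 (-1.19 ± 0.062), Tnfrsf19 (-0.74 ± 0.038), the TRAIL gene Tnfsf10 (-0.57 ± 0.13) and Fas (-0.38 ± 0.088) fell.

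Of 29 interferon-stimulated genes 8 were called higher (27.6%) and 6 lower (20.7%), near the 19.9% and 16.4% of all genes. None changed by 2-fold, and 15 were not called. Oasl1 (0.96 ± 0.064) and Rsad2 (0.61 ± 0.057) rose and Ifit2 (-0.99 ± 0.084) fell. Their regulators were called higher for 11 of 20 genes (7 with only 6 arrays fitted) and lower for 5. Irf5 rose by 1.5 ± 0.077, Irf9 by 0.69 ± 0.040 and Irf8 by 0.62 ± 0.073. Log2 values of Irf5 were 7.35, 7.49 and 7.48 in parental cells and 9.04, 8.7 and 9.06 in Tw1KD cells. Stat3 fell by 0.64 ± 0.042 and Irf1 by 0.32 ± 0.053, though the other probe set of Irf1 was not called (-0.071). Antigen presentation genes were called lower for 6 of 14 and higher for 2. The immunoproteasome subunit genes Psmb8 (-1.12 ± 0.12) and Psmb9 (-0.51 ± 0.061) fell and the editing factor gene Tapbpl (0.71 ± 0.082) rose.

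Sterol synthesis genes were mostly lower in Tw1KD cells. Of 20 genes 16 were called lower (80%) and 2 higher, with a median of -0.47. Idi1 measured 9.9, 9.91 and 9.92 in the 3 parental samples and 8.76, 8.45 and 8.86 in the 3 Tw1KD samples. Idi1, an isomerase of the mevalonate pathway, fell by 1.22 ± 0.080. In parental cells Hmgcs1 was at 10.41, 10.36 and 10.43, and in Tw1KD cells at 9.35, 9.23 and 9.43. Hmgcs1, an early enzyme of the pathway, fell by 1.06 ± 0.051. Hsd17b7 (-1.14 ± 0.053), the sterol sensor partner gene Insig1 (-1.08 ± 0.043), Cyp51 (-0.73 ± 0.096), Fdps (-0.65 ± 0.061), Sqle (-0.63 ± 0.053) and Srebf2 (-0.5 ± 0.044), the master regulator, fell. Ebp rose by 0.54 ± 0.062. With the neighbour correction 17 genes were lower and 2 higher. Fatty acid synthesis genes were called lower for 10 of 17 and higher for 5. Elovl6 (-1.1 ± 0.046), Acss2 (-0.77 ± 0.043), Fasn (-0.71 ± 0.048), Acaca (-0.5 ± 0.049) and Srebf1 (-0.44 ± 0.046) fell, and Fads3 (0.61 ± 0.052) rose.

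Amino acid and ATF4 stress genes rose in the largest share of any list. ATF4 is the factor through which cells answer amino acid shortage. Of 27 genes 19 were called higher (70.4%, against 19.9% of all genes) and 2 lower, with a median of 0.25. The Chac1 values were 10.62, 10.58 and 10.6 in parental cells and 11.73, 11.78 and 11.73 in Tw1KD cells. Chac1, which degrades glutathione, rose by 1.15 ± 0.050. Sesn2 (1.12 ± 0.094), the mitochondrial folate enzyme gene Mthfd2 (1.08 ± 0.047), Stc2 (0.97 ± 0.084), Trib3 (0.92 ± 0.050) and the serine synthesis gene Phgdh (0.59 ± 0.062) rose. Atf4 itself rose by 0.41 ± 0.049. The cystine transporter gene Slc7a11, another known target, fell by 0.65 ± 0.045. Array by array, Slc7a11 gave 11.14, 11.14 and 11.24 in parental cells and 10.51, 10.49 and 10.56 in Tw1KD cells. Endoplasmic reticulum chaperone genes were called higher for 9 of 21 and lower for 2. Herpud1 (0.59 ± 0.050) and Sel1l (0.52 ± 0.037), which act in protein degradation from that compartment, rose, and the chaperone gene Hspa5 was not called (-0.018 ± 0.036), except as higher with the neighbour correction (0.2). With the neighbour correction the ATF4 list had 18 genes higher and 2 lower.

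Detoxification and energy genes gave further single changes. Of 24 glutathione S-transferase and oxidative stress genes 11 were called lower and 6 higher. Gstt1 (-2.27 ± 0.088), Gstt3 (-1.57 ± 0.068), Gstm5 (-1.56 ± 0.081), Gstm1 (-1.24 ± 0.054) and Gstm7 (-1.21 ± 0.089) fell, and the factor gene Nfe2l2 fell by 0.51 ± 0.047. Intensities of Gstt1 were 8.95, 9.03 and 9.2 in parental cells and 6.72, 6.99 and 6.65 in Tw1KD cells. These transferase genes lie in 2 clusters of close paralogues, so the members read are uncertain. With the neighbour correction 2 members of this list were called higher and 10 lower. In the glycolysis and hypoxia list 11 of 28 were called higher and 8 lower. Pfkfb4 (1.54 ± 0.059) rose while its paralogue Pfkfb3 (-0.69 ± 0.076) fell, and the carbonic anhydrase genes Car9 (-1.76 ± 0.076) and Car12 (-1.24 ± 0.049) fell. Ldha (-0.019 ± 0.034) and Aldoa (0.0066 ± 0.034) were not called. Ppargc1a, a coactivator of mitochondrial genes, rose by 1.7 ± 0.12. For Ppargc1a the arrays gave 5.29, 5.6 and 5.7 in parental cells and 7.3, 7.19 and 7.19 in Tw1KD cells. Of the 33 genes in the respiratory chain list 9 were called higher and 7 lower, and 5 and 11 with the neighbour correction, so no direction is given for them.

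Replication genes were mostly higher and mitosis genes mostly lower in Tw1KD cells. Genes of DNA replication were called higher for 15 of 27 and lower for 4, with a median of 0.2. Genes of mitosis were called lower for 18 of 27 and higher for 5, with a median of -0.23. No difference reached 2-fold. Cdt1 read 10.76, 10.67 and 10.72 on the parental arrays and 11.57, 11.62 and 11.58 on the Tw1KD arrays. Cdt1, a licensing factor of replication origins, rose by 0.88 ± 0.037. Cdc45 (0.74 ± 0.038), the cyclin E genes Ccne1 (0.72 ± 0.053) and Ccne2 (0.48 ± 0.078), Pola1 (0.7 ± 0.065) and Mcm10 (0.58 ± 0.044) rose. Parental arrays gave 10.36, 10.33 and 10.36 for Kif20a and Tw1KD arrays 9.7, 9.56 and 9.72. Kif20a, a mitotic kinesin gene, fell by 0.69 ± 0.047. Kif23 (-0.64 ± 0.050), the centromere genes Cenpf (-0.6 ± 0.058) and Cenpa (-0.55 ± 0.048), Plk1 (-0.48 ± 0.042), Ccnb2 (-0.46 ± 0.037) and Mki67 (-0.5 ± 0.066) fell. Ttk rose by 0.57 ± 0.095, against the direction of most mitotic genes. With the neighbour correction 12 replication genes were higher and 2 lower, and 2 mitotic genes were higher and 16 lower. The 4 lower replication genes became 2 when parental replicate 1, parental replicate 3 or Tw1KD replicate 2 was left out. The 5 higher mitotic genes became 3 on leaving out parental replicate 2, Tw1KD replicate 1 or Tw1KD replicate 3. The difference between the 2 lists was not tested. Of 14 D cyclin and inhibitor genes 3 were called higher and 4 lower. Ccnd2 rose by 0.51 ± 0.035, and Cdkn2c (-0.49 ± 0.049) and Cdkn1b (-0.26 ± 0.046), which encode inhibitors of cyclin-dependent kinases, fell. Among 17 p53 targets 6 were called higher and 5 lower, with Plk3 (1.25 ± 0.042) and Mdm2 (0.63 ± 0.055) higher and Btg2 (-1.05 ± 0.053) and Sesn1 (-0.8 ± 0.058) lower.

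**Figure D4:**
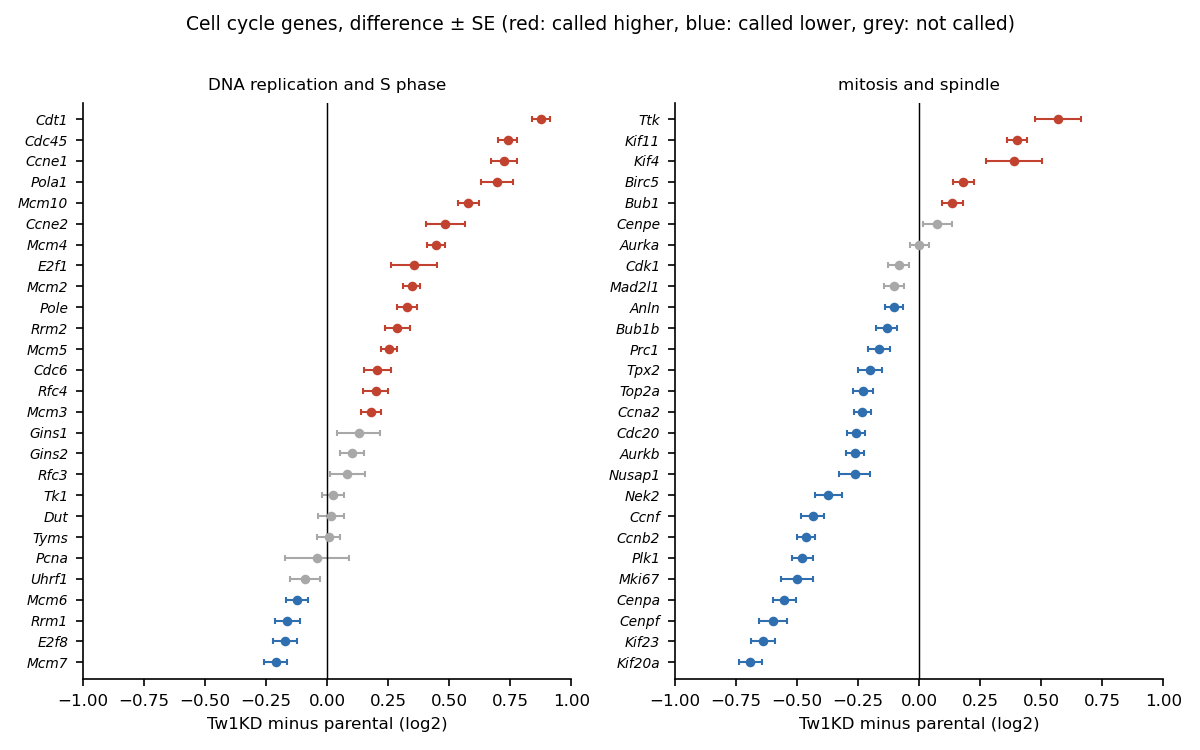
Tw1KD minus parental differences (log2, horizontal axis, ± standard error) of 27 replication genes (left) and 27 mitosis genes (right), in red where called higher, blue where called lower and grey where not called. Replication genes reach 0.88 at Cdt1, and mitosis genes reach -0.69 at Kif20a.

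Mammary lineage and Notch genes stayed near the background share, with 6 of 29 called higher and 7 lower. The Notch ligand genes Dll1 (1.24 ± 0.071), Jag1 (0.69 ± 0.073) and Jag2 (0.47 ± 0.082) rose, while the receptor genes Notch1 (-0.97 ± 0.056) and Notch3 (-0.43 ± 0.088) and the target gene Hey1 (-0.42 ± 0.076) fell. Log2 values of Notch1 were 10.44, 10.4 and 10.52 in parental cells and 9.36, 9.56 and 9.54 in Tw1KD cells. The milk protein gene Csn3 fell by 1.39 ± 0.045, and Csn2 (-0.032 ± 0.049) was not called. Cd44, a marker of mesenchymal-type carcinoma cells, was not called (-0.017 ± 0.037).

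The 206 genes called at least 2-fold higher had a median parental level of 7.67, and the 323 called at least 2-fold lower one of 9.07. Of the 206, 10 had a parental mean below 5.52, near the background, where the size of a rise is not well set. Lilr4b measured 5.0, 4.84 and 4.72 in the 3 parental samples and 10.37, 10.31 and 10.26 in the 3 Tw1KD samples. Lilr4b rose by 5.46 ± 0.14 and belongs to a leukocyte receptor family with nearly identical members, any of which the probes may read. In parental cells Aspa was at 5.05, 5.26 and 5.32, and in Tw1KD cells at 9.62, 9.51 and 9.7. Aspa, which encodes an enzyme that cleaves N-acetylaspartate, rose by 4.4 ± 0.11. The dipeptidase genes Dpep2 and Dpep1 rose by 3.87 ± 0.060 and 3.06 ± 0.089, and the second probe set of Dpep2 gave 1.5. Folr1, a folate receptor gene (3.08 ± 0.1), the anion transporter gene Slc26a9 (3.22 ± 0.049), Anxa8 (3.06 ± 0.11), the lipoxygenase gene Aloxe3 (2.78 ± 0.085), the RNA-binding protein gene Cpeb2 (2.78 ± 0.082) and the chemokine receptor gene Cxcr3 (2.68 ± 0.065) followed. The Myo1d values were 8.47, 8.41 and 8.46 in parental cells and 11.22, 11.25 and 11.31 in Tw1KD cells. Myo1d, an unconventional myosin gene, rose by 2.81 ± 0.047 from a well measured parental level, and both of its probe sets rose (2.72 and 2.81). It was at 8.14 ± 0.045 with wild-type Twist1, 9.06 ± 0.075 with S42A and 11.31 ± 0.046 with S42D. Array by array, Havcr2 gave 6.38, 6.18 and 6.59 in parental cells and 9.27, 9.29 and 9.32 in Tw1KD cells. Havcr2, which encodes the immune receptor TIM-3, rose by 2.91 ± 0.084 and was at 9.59 ± 0.055 with wild-type Twist1, 8.75 ± 0.083 with S42A and 10.06 ± 0.1 with S42D, so it stayed above the parental level in each line with a construct.

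Among the largest falls, Hsd17b11 was at 10.55, 10.52 and 10.61 in parental cells and 5.31, 4.83 and 5.1 in Tw1KD cells. Hsd17b11, a lipid droplet dehydrogenase gene, fell by 5.48 ± 0.098 to a level near the background. It was at 9.8 ± 0.022 with wild-type Twist1, 4.98 ± 0.17 with S42A and 10.8 ± 0.029 with S42D. For Aqp1 the arrays gave 11.23, 11.19 and 11.23 in parental cells and 7.85, 7.92 and 7.99 in Tw1KD cells. The water channel gene Aqp1 fell by 3.3 ± 0.055. The developmental factor gene Osr1 (-3.39 ± 0.098), the caveolar protein gene Cavin2 (-3.18 ± 0.082), the complement protease gene C1s1 (-2.99 ± 0.15), the neuronal membrane glycoprotein gene Gpm6b (-3.97 ± 0.063), the adaptor gene Sorbs2 (-3.57 ± 0.11) and the methyltransferase gene Inmt (-2.8 ± 0.059) fell too. Mest read 8.54, 8.5 and 8.53 on the parental arrays and 5.76, 5.79 and 5.78 on the Tw1KD arrays. Mest, an imprinted gene, fell by 2.75 ± 0.063. The coagulation transglutaminase gene F13a1 (-2.75 ± 0.074) and the phosphodiesterase gene Pde4d (-2.7 ± 0.094) also fell, and the other probe sets of Pde4d gave -2.17 or lower. Osr1 was at 7.55 ± 0.044 with wild-type Twist1, 6.5 ± 0.23 with S42A and 7.02 ± 0.14 with S42D.

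**Figure D5:**
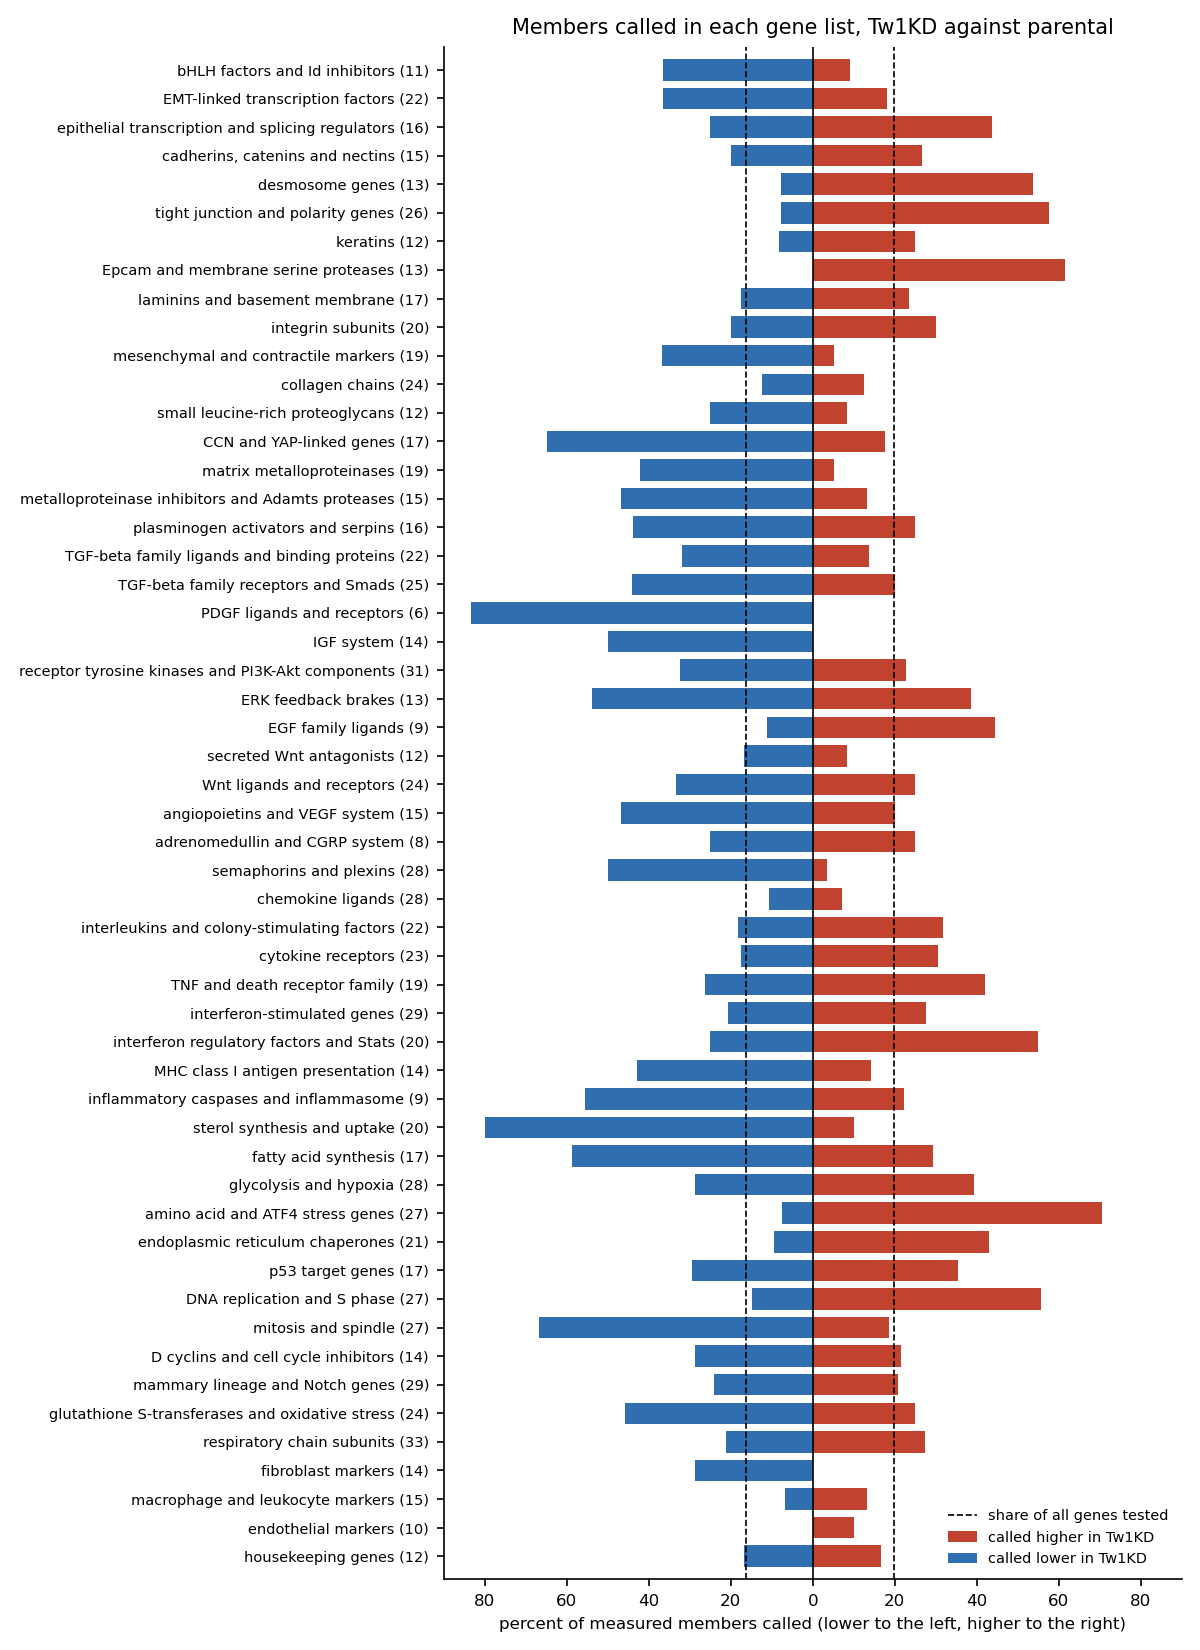
Share of the measured members of each of the 53 gene lists called higher (red, to the right) or lower (blue, to the left), in percent; the number measured is in brackets and dashed lines mark the shares of all genes, 19.9% and 16.4%. Bars past the dashed line on the left are longest for PDGF, sterol and mitosis genes, and on the right for ATF4 stress, Epcam and tight junction genes.

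Markers of other cell types were read in the same arrays. Of 14 fibroblast markers 4 were called lower, Pdgfrb, Pdgfra, Dcn and Pi16 (-0.42 ± 0.089), and none higher. Their mean level over the list was 6.53, 6.51 and 6.42 in parental cells and 6.11, 6.23 and 6.03 in Tw1KD cells. Col1a1, Col3a1 and Thy1 (-0.024 ± 0.11) were not called. A lower share of fibroblast-like cells and a lower level per cell cannot be told apart in bulk RNA, and the part of either in the PDGF and matrix results was not tested. Of 15 macrophage and leukocyte markers Cd68 (1.88 ± 0.048) and Cd14 (0.76 ± 0.1) were called higher and Cd53 (-0.63 ± 0.093) lower. The defining leukocyte genes Ptprc (-0.058 ± 0.065), Adgre1 (-0.037 ± 0.054), Csf1r (0.022 ± 0.067) and Itgam (-0.095 ± 0.064) were not called and lay between 4.63 and 5.52 on every array, near or below the 25th percentile of gene means (5.52). That list's mean was 5.79 to 5.82 in parental cells and 5.87 to 6.03 in Tw1KD cells. Of 10 endothelial markers Cdh5 was called higher (0.33 ± 0.087), except with only 6 arrays fitted, and Pecam1 (0.032 ± 0.073) was not called. Of 12 housekeeping genes 2 were called higher and 2 lower, with a mean of 11.6 to 11.7 in both lines.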

How the data were processed

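Total RNA was extracted from each line with a column kit, amplified from 100 ng, labelled with biotin and hybridised, per the labels' protocols. The authors deposited log2 intensities, 1 per probe set and array. The submitters' processing notes name R 2.10.0 and affy without their roles, and the background correction and scaling are not given in the sources used here. Whether values were capped at either end was not stated, and no background call per probe set was used.

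Groups were taken from the titles. The line with S42D is named so from its titles, since its other label names both substitutions. Of 34760 probe sets, 21640 carried 1 gene symbol, 1321 several and 11799 none in the platform annotation. Symbols of 21553 were updated through gene numbers to the GRCm38.p6 gene table. Each of 19937 genes was read from its brightest probe set with 1 symbol, and 954 genes had more than 1. No gene was left out as dim. All 15 arrays were fitted with 1 mean per line (limma 3.58.1 in R 4.3.3, lmFit and eBayes, 2-sided), and p-values were adjusted by Benjamini-Hochberg over all genes. The median standard error was 0.0674 on the log2 scale. The fit was tested on simulated data. Tables and plots used Python 3.11.15, pandas 2.3.3 and matplotlib 3.10.9.

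The members and the 53 gene lists (993 of 1048 entries measured) were chosen with earlier results of these data known. Genes were named by rule. The rule took the 25 largest called rises and falls without overlap between the lines, passing over predicted models and olfactory or vomeronasal receptors and, from each list, at most the 5 strongest called members either way. It also took any member of lists of up to 30 genes, and all members of the bHLH, cadherin, desmosome, keratin, TGF-beta ligand and PDGF lists. Alternatives were array centring, quantile normalization, only 6 arrays, a replicate block, array weights, a trended robust variance, a filter on dim genes, the mean of probe sets, all probe sets, each array left out, and the neighbour correction. The last was added after the data were seen.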

Additional observations from a re-analysis of the deposited data

How the results depend on the processing

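Counts of called genes stayed within 1.5 times under all 16 alternatives, between 5932 with only the 6 arrays fitted and 8377 with array weights. Leaving out 1 array gave 6618 to 7445 called genes, and the Twist1 difference then ran from -1.75 to -1.63. Of 405 named genes 375 were called in every setting or in none, and 30 gained or lost a call under at least 1 alternative. Sign changes were counted only for named genes called in the main fit or in the alternative. With the neighbour correction 7 such genes changed sign: Bmp1 (-0.22), Hspa5 (0.20), Ltbp3 (-0.012), Nectin3 (-0.046), Pkp4 (0.12), Smad4 (-0.25) and Yap1 (0.25). Nectin3 (0.32) had the largest of these differences without it. Of 106 list counts 35 moved over 1.5 times under some alternative, and 5 of those 35 were of 6 or more genes. Leaving out 1 array changed by 1 the few members called against a list's main direction in the desmosome, tight junction, mesenchymal, proteoglycan, metalloproteinase, semaphorin, antigen presentation, sterol, ATF4 and chaperone lists. The number of arrays and the unknown scaling limit small differences, and genes near the background have little room to fall.

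The labels number the replicates alike in every line. Deviations of same-numbered parental and Tw1KD arrays correlated at 0.015, 0.394 and 0.417 across genes. Different-numbered arrays ranged from -0.444 to 0.135, with -0.346 and -0.444 between replicates 2 and 3. Replicates 2 and 3 were thus more alike by number than across numbers, and replicate 1 was not. Deviations were taken from each line's own mean, so these correlations depend on each other and are not separate observations. The main fit did not take the numbers as pairs. With the replicate number as a block 7046 genes were called, 6983 of them among the 7242 with the same direction, and the list of EMT factors had 2 members called higher in place of 4.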
